A study of Mus musculus with 4 samples.

Results

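A helper T cell is held in, moved through or released from a lymph node by a small set of chemoattractant receptors and the factor that drives some of them, and 7 of these genes were followed here: Cxcr5, Ccr7, S1pr1, S1pr2, Gpr183, Cxcr4 and Klf2. They were picked by name for their role, with earlier results of these data known but by no threshold on measured values, from the 28625 gene symbols of the count matrices. RNA was counted as unique molecular identifiers (UMIs), which mark single captured RNA molecules, in 3780 cells of a Tfh sort and 3989 cells of an IL-4 reporter sort that could be assigned to a mouse. No cell barcode was shared between the sorts.

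All 6 mice were immunized through the nose with 10 µg Alternaria alternata extract and 25 µg of NP-OVA, a hapten-carrier antigen, and mediastinal lymph nodes were taken on day 7. The Tfh sort held activated CD4 T cells (TCRβ+ CD4+ CD44+) with surface PD-1 and CXCR5 of 3 C57BL/6 mice. GFP marked the cells of the other sort, the IL-4 reporter sort, which held activated CD4 T cells with GFP from 3 C57BL/6 mice of the 4get IL-4 reporter strain, in which GFP is made from the Il4 gene. Sorted cells of both kinds received PMA and ionomycin for 30 min of stimulation, so every level given here is that of a restimulated cell, and no unimmunized or unstimulated cells were analysed here. Surface CXCR5 was part of the gate of the Tfh sort, so Cxcr5-low cells were selected against in it, and every cell of the reporter sort had passed the GFP gate whether or not an Il4 UMI was seen in it. A separate hashtag antibody labelled the cells of each mouse, and mice are the replicates (n = 3 per sort). The sorts differ in strain, chemistry and sequencing run, so their levels are set side by side and not tested against each other.

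Entry, placement and exit follow chemical gradients. CCR7 draws T cells into the T zone along CCL19 and CCL21, CXCR5 draws cells into the B cell follicle along CXCL13, and GPR183 (EBI2) draws cells to the follicle border along oxysterols. S1PR1 carries cells out into lymph, where sphingosine-1-phosphate is high, whereas S1PR2 opposes migration and helps to hold follicular helper T (Tfh) cells and germinal-centre B cells in the germinal centre. CXCR4 answers to CXCL12, which marks the germinal-centre dark zone and the medulla. KLF2 is a transcription factor that switches on S1pr1 and is kept low in Tfh cells, and BCL6, the lineage factor of Tfh cells, opposes the exit programme, while GATA3 is the lineage factor of Th2 cells.

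In GRCm38 (GENCODE M21), Cxcr5 lies at chr9:44511787-44561877, Ccr7 at chr11:99144196-99155077, S1pr1 at chr3:115710433-115715072 and S1pr2 at chr9:20962361-20976781, all on the minus strand. Gpr183 lies at chr14:121952551-121965195 and Cxcr4 at chr1:128588199-128592293 on the minus strand, and Klf2 at chr8:72319033-72321656 on the plus strand. All are protein-coding, and the gene identifiers in the matrices are those of the annotation. RefSeq promoter windows (GRCm38.p6, 250 bases before the start, written in the gene's direction) were matched for 4 of the 7 genes, namely Klf2, Gpr183, Cxcr4 and S1pr2. Those of Klf2, Gpr183 and Cxcr4 are shown because these genes were called lower in Il13+ cells of the reporter sort, as described below. The Gpr183 call there was lost without cycling cells and with cells matched in depth. Cxcr5 and Ccr7 were also lower but had no window, and shared regulation was not tested. Capitals mark matches to CACCC, the core bound by Krüppel-like factors, or to its reverse complement GGGTG.
Klf2 promoter, chr8:72318812-72319061, plus strand: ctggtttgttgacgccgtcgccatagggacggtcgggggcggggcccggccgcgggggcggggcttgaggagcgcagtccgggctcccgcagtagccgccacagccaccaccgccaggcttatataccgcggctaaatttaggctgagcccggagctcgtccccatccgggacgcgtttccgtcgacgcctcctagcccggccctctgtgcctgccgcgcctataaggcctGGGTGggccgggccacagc
Gpr183 promoter, chr14:121965194-121965443, minus strand: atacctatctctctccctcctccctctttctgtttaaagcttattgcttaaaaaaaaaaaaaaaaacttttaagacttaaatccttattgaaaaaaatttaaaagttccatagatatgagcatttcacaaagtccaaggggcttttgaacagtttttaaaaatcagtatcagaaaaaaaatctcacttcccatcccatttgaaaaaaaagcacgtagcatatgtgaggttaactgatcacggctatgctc
Cxcr4 promoter, chr1:128592300-128592549, minus strand: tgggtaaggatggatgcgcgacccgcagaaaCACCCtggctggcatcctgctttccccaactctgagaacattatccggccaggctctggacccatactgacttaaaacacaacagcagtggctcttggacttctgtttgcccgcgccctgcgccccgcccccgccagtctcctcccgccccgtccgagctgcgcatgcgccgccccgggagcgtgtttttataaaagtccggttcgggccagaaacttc
The Klf2 and Cxcr4 windows hold 1 match each and the Gpr183 window holds none. The motif lies in 52.0% of 32851 RefSeq windows of this length, searched on both strands, so a match is common. The forkhead motif GTAAACA (reverse complement TGTTTAC), searched because FOXO1 is known to drive Klf2 and Ccr7, lies in 3.17% of the windows and in none of the 4 matched here.

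Levels are given as CPM (counts of a gene scaled to a total of 1000000). CD4 T cells held Cd3e at 734 to 769.9 CPM in the Tfh sort and at 339 to 378 CPM in the reporter sort. Cd3e is among the genes by which these cells were chosen, so its level is no check of the label, and Cd79a was at 0 by construction. Cd4, not used in the choice, ran from 237 to 264 CPM and from 184 to 215 CPM in these T cells. In the B cells of the 2 sorts Cd4 ran from 24.4 to 53.4 CPM and from 54.1 to 68.3 CPM. UMIs per mouse totalled 3378446 to 5434703 in the Tfh sort and 12024433 to 15123654 in the reporter sort, with a median of 2611 to 2762 and of 6295 to 6807 UMIs per cell. CD4 T cells numbered 2914 and 3359. The Tfh sort also held 562 cells with 2 or more Cd79a UMIs and the reporter sort 250, which are the B cells described at the end.

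T cells were first split by the lineage factors, into cells with a Bcl6 UMI and no Gata3 UMI (Bcl6-marked) and cells with a Gata3 UMI and no Bcl6 UMI (Gata3-marked), both without a Foxp3 UMI. Bcl6-marked cells of the reporter sort were rich in Cxcr5 and poor in S1pr1. Without cycling cells S1pr1 stayed lower (log2 change -1.10) but was no longer called. Ccr7 and Gpr183 were also called higher and Klf2 lower, by smaller amounts that rested on single mice or on cycling cells. None of the genes passed the test in the Tfh sort. The contrast compared 94, 78 and 136 Bcl6-marked with 542, 463 and 526 Gata3-marked cells in reporter mice 1, 2 and 3.

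Cxcr5, the follicle-homing receptor, stood at 61.6, 89.4 and 87.2 CPM in Bcl6-marked cells of reporter mice 1, 2 and 3, against 16.4, 11.8 and 14.4 CPM in Gata3-marked cells. The lowest Bcl6-marked value was above the highest Gata3-marked one, a log2 change of 2.48 ± 0.19 (SE; adjusted p = 3.3e-13, edgeR quasi-likelihood test with Benjamini-Hochberg adjustment). S1pr1, the exit receptor, stood at 8.22, 8.77 and 12.6 CPM in Bcl6-marked cells, against 29.8, 27.3 and 35.7 CPM in Gata3-marked cells. It was lower in all 3 mice without overlap, with a log2 change of -1.63 ± 0.27 (adjusted p = 1.1e-05), resting on 23 UMIs in Bcl6-marked and 547 in Gata3-marked cells. With these, 5 of the 7 genes were called in the reporter sort, where 26.8% of all 9276 tested genes were, 12.7% higher and 14.1% lower.

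Klf2, the activator of S1pr1, stood at 259, 177 and 142 CPM in Bcl6-marked cells, against 259.6, 227 and 295 CPM in Gata3-marked cells. Mouse 1 showed almost no difference and mice 2 and 3 were lower, a log2 change of -0.46 ± 0.13 (adjusted p = 0.0072) that was -0.14 without mouse 3 and -0.76 without mouse 1. Ccr7, the T-zone receptor, stood at 105, 26.3 and 48.3 CPM in Bcl6-marked cells, against 43.1, 30.0 and 38.1 CPM in Gata3-marked cells. The groups overlapped, mouse 2 ran the other way, and the log2 change of 0.66 ± 0.19 (adjusted p = 0.0094) was 0.14 without mouse 1. Gpr183, the border receptor, stood at 394, 449 and 341 CPM in Bcl6-marked cells, against 341, 309.8 and 313 CPM in Gata3-marked cells. Its log2 change was 0.29 ± 0.10 (adjusted p = 0.028), with mouse 3 barely above the highest Gata3-marked mouse, and it was not called without mouse 1 (0.30) or mouse 2 (0.15). None of these 3 calls held with DESeq2 or without the mouse as a block. S1pr2 and Cxcr4 did not pass: S1pr2 stood at 5.48, 15.8 and 21.0 CPM in Bcl6-marked cells, against 8.18, 5.79 and 10.0 CPM in Gata3-marked cells (log2 change 0.79 ± 0.34, adjusted p = 0.078). Without mouse 1 it was called, at 1.17 (adjusted p = 0.031). Cxcr4 had 1 high mouse among the Bcl6-marked cells, with 26.0, 22.8 and 58.8 CPM against 23.4, 25.1 and 32.1 CPM in Gata3-marked cells, and was called without mouse 2 (0.59, adjusted p = 0.046).

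Cycling markers moved with this contrast. The summed level of Mki67, Top2a and Cdk1, all 3 detected in every sum, was 159.6 to 239 CPM in Bcl6-marked and 726 to 1091 CPM in Gata3-marked cells of the reporter sort. With every cell that held a UMI of these genes left out, Cxcr5 kept a log2 change of 1.74 (adjusted p = 1.2e-05) and S1pr1 one of -1.10 (adjusted p = 0.054), whereas Ccr7 changed sign to -0.60 and Gpr183 to -0.26. Matching the Gata3-marked cells to the depth of the Bcl6-marked ones left Cxcr5 at 2.13 and S1pr1 at -1.83, and put Gpr183 at 0.09. Over all 11 alternatives Cxcr5 stayed between 1.74 and 3.90, the highest with 2 or more UMIs asked of each factor.

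In the Tfh sort, 38, 41 and 27 Bcl6-marked cells faced 287, 272 and 168 Gata3-marked cells. Cxcr5 stood at 102, 112 and 89.6 CPM in Bcl6-marked cells, against 93.8, 111 and 108 CPM in Gata3-marked cells. The groups lay on top of each other, with a log2 change of 0.01 ± 0.24, and 0 of the 4 genes tested were called, where 0.705% of 4968 genes were, 0.302% higher and 0.403% lower (361 genes had an unadjusted p under 0.05, and DESeq2 called 7). S1pr1 had 1 UMI in Bcl6-marked and 27 UMIs in Gata3-marked cells, S1pr2 had 2 and 31, and Cxcr4 had 7 and 59, too few for the test. The Cxcr5 contrast was larger in the reporter sort than in the Tfh sort by 2.53 ± 0.29 on the log2 scale (interaction term over all 6 mice, adjusted p = 1.6e-09, where 3.42% of genes were called). Bcl6 itself was at 15.3 to 18.9 CPM in T cells of the Tfh sort and 27.1 to 37.8 CPM in those of the reporter sort. Gata3-marked cells, chosen for lacking a Bcl6 UMI, may therefore still express Bcl6, and its part in the absence of calls was not tested. Cells without surface CXCR5 had been gated out of both groups in the Tfh sort. The gate, the strain, the chemistry and the detection of Bcl6 cannot be told apart in this difference between sorts.

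**Figure D1:**
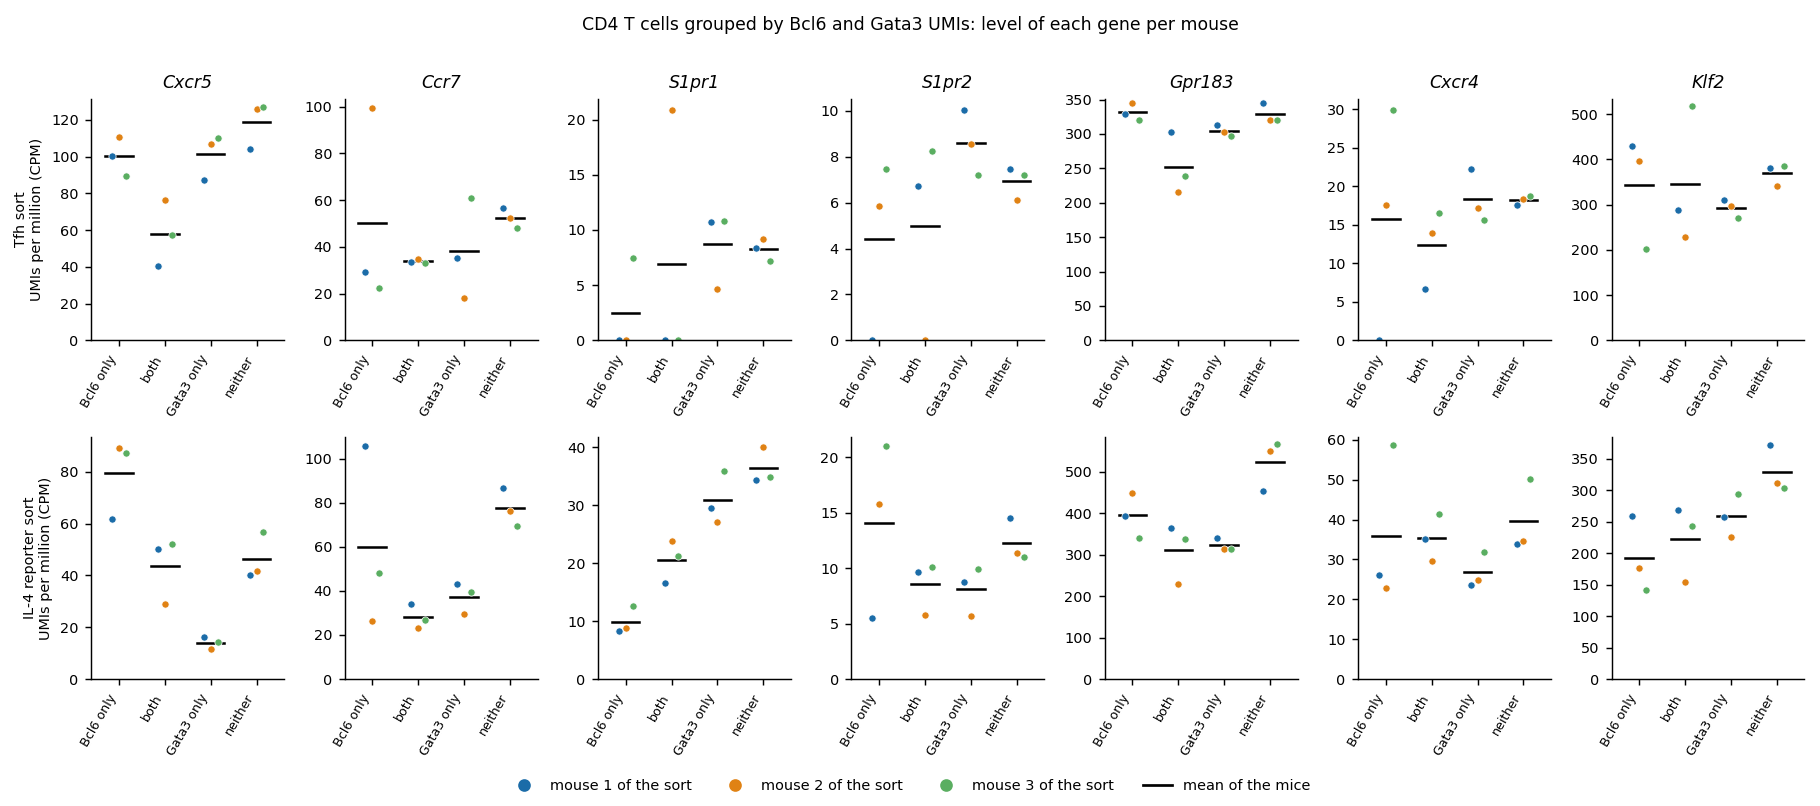
Level of each gene in CPM (y axis, from 0) in CD4 T cells with Bcl6 only, both factors, Gata3 only or neither, per mouse (points) with the mean of the mice (bar), Tfh sort above and IL-4 reporter sort below. Cells with a Foxp3 UMI are included. In the reporter sort Cxcr5 is highest and S1pr1 lowest in cells with Bcl6 only, and in the Tfh sort Cxcr5 of these cells lies among those with Gata3 only.

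Cells with UMIs of both factors, or of neither, filled in the order of levels. Unlike the tested groups, all classes in this ordering include cells with a Foxp3 UMI. Cxcr5 of the reporter sort averaged 79.4 ± 15.4 CPM (SD, n = 3) in cells with Bcl6 only, 46.3 ± 9.24 CPM with neither, 43.8 ± 12.8 CPM with both and 14.01 ± 2.34 CPM with Gata3 only, and only the middle pair overlapped. S1pr1 ran nearly the opposite way, with 36.4 ± 3.19 CPM with neither, 30.9 ± 4.54 CPM with Gata3 only, 20.5 ± 3.64 CPM with both and 9.86 ± 2.39 CPM with Bcl6 only, and only the first pair overlapped. Klf2 averaged 330 ± 37.5 CPM in reporter cells with neither factor, clear of the other 3 classes, whose neighbours overlapped at 259, 222 and 193 CPM in cells with Gata3 only, both and Bcl6 only. Ccr7 and Gpr183 were also highest with neither factor, at 77.4 ± 8.83 and 523 ± 61.1 CPM, but the Ccr7 range there overlapped that of cells with Bcl6 only.

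The other genes of the positioning machinery were read in 5 lists. Among reporter cells, 2 of 11 tested guidance receptors were higher and 4 lower in Bcl6-marked cells, with a median log2 change of -0.34 against 0.03 over all genes. The falls were Ltb4r1, the leukotriene B4 receptor (1.74 CPM in Bcl6-marked against 142 CPM in Gata3-marked cells), the chemokine receptors Ccr2 (4.63 against 87.2 CPM) and Cxcr6 (19.6 against 86.3 CPM), and S1pr4, a relative of S1pr1 (22.4 against 66.6 CPM). Of 17 tested upstream regulators, 10 were higher and 2 lower, with a median of 0.48. Tcf7, which encodes TCF-1 and favours Tfh fate, reached 530 CPM in Bcl6-marked against 224 CPM in Gata3-marked cells, and Ascl2, known to raise Cxcr5, 20.2 against 3.04 CPM. Prdm1, which encodes BLIMP-1 and opposes BCL6, was lower at 1.74 against 18.9 CPM.

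Of 16 tested retention and adhesion genes, 5 were higher and 6 lower in the Bcl6-marked reporter cells (median -0.17), and of 22 receptor signalling genes 5 were higher and 2 lower (median 0.10). Sh2d1a, which encodes SAP and steadies T cell contacts with B cells, reached 447 CPM in Bcl6-marked against 190.3 CPM in Gata3-marked cells. The P-selectin ligand gene Selplg was lower, at 59.99 against 163 CPM, as was the integrin gene Itgb7 at 105 against 248 CPM. Rgs10, a damper of G-protein signals, was higher with a log2 change of 1.05, and its relative Rgs1 was lower with one of -0.99. None of the 3 tested ligand genes was called in the reporter sort, and no gene of any of the 5 lists was called in the Tfh sort.

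The second split followed IL-13. Il13+ cells (2 or more Il13 UMIs) were compared with Il4+ Il13- cells (2 or more Il4 UMIs, no Il13 UMI). Klf2 was called lower in Il13+ cells of both sorts. Reporter Il13+ cells were also lower in both zone receptors, Cxcr5 and Ccr7, and in Gpr183 and Cxcr4, whereas S1pr1 was not distinguishable. The groups held 25, 29 and 10 against 331, 402 and 229 cells in mice 1, 2 and 3 of the Tfh sort, and 214, 218 and 148 against 39, 47 and 78 cells in the reporter sort.

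Klf2 stood at 95.4, 190.1 and 132 CPM in Il13+ cells of the Tfh sort, against 349, 318 and 298 CPM in Il4+ Il13- cells. Every Il13+ value was below every Il4+ Il13- value, with a log2 change of -1.17 ± 0.20 (edgeR, adjusted p = 8.2e-06), and 1 of the 5 genes tested was called, where 3.61% of 5368 genes were, 2.46% higher and 1.15% lower. The call held in 11 of 11 alternative settings, at changes between -1.62 and -0.49. Cxcr5 stood at 47.7, 78.3 and 32.9 CPM in Il13+ cells, against 100.5, 118 and 97.3 CPM in Il4+ Il13- cells. These groups did not overlap either, but the log2 change of -0.85 ± 0.30 did not pass (adjusted p = 0.11). Gpr183 (log2 change -0.20 ± 0.17), Ccr7 (-0.60 ± 0.64) and Cxcr4 (0.03 ± 0.64) overlapped, the last pair with wide errors, and S1pr1 and S1pr2 had 2 UMIs each in the Il13+ cells and were not tested.

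Cxcr5 of the reporter sort stood at 4.08, 3.66 and 4.79 CPM in Il13+ cells, against 14.6, 23.7 and 34.9 CPM in Il4+ Il13- cells, a log2 change of -2.66 ± 0.36 (adjusted p = 4.2e-06). Ccr7 stood at 9.03, 12.6 and 11.1 CPM in Il13+ cells, against 40.9, 58.2 and 53.5 CPM in Il4+ Il13- cells, a log2 change of -2.31 ± 0.24 (adjusted p = 1e-07). For both zone receptors the highest Il13+ mouse lay below the lowest Il4+ Il13- mouse, and in all 5 of 7 genes were called, all lower, where 30.3% of 8418 genes were called, 14.9% higher and 15.4% lower. Gpr183 stood at 217, 194 and 240.1 CPM in Il13+ cells, against 556, 366 and 499 CPM in Il4+ Il13- cells (log2 change -1.19 ± 0.11, adjusted p = 1.3e-08). Cxcr4 stood at 16.0, 22.6 and 32.3 CPM in Il13+ cells, against 67.3, 45.3 and 43.6 CPM in Il4+ Il13- cells (log2 change -1.10 ± 0.26, adjusted p = 0.0021). Neither overlapped. Klf2 stood at 210.0, 174 and 272 CPM in Il13+ cells, against 260.3, 237 and 395 CPM in Il4+ Il13- cells. It was lower within each mouse though the ranges overlapped, a log2 change of -0.53 ± 0.11 (adjusted p = 0.00066) that was -0.28 and not called in a wider set of T cells. Without mouse 1 the Cxcr4 change was -0.72, still called.

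S1pr1 gave no such drop in reporter Il13+ cells, at 29.1, 23.1 and 35.3 CPM, against 26.3, 6.47 and 56.0 CPM in Il4+ Il13- cells (log2 change -0.18 ± 0.28). The spread among the Il4+ Il13- mice was wide, on 57 UMIs in all. S1pr2 stood at 6.12, 5.72 and 5.69 CPM in Il13+ cells, against 11.7, 8.62 and 8.72 CPM in Il4+ Il13- cells, and its change of -0.77 ± 0.45 did not pass (adjusted p = 0.21).

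Depth and cycling both moved with the Il13 contrast of the reporter sort. The median UMIs per cell were 12233 to 14594 in Il13+ cells and 7299 to 7810 in Il4+ Il13- cells, and the summed cycling markers 1006 to 1522 CPM and 345 to 792 CPM. Without cycling cells the log2 change was -2.48 for Ccr7 (adjusted p = 0.005), -1.72 for Cxcr4 and -0.67 for Klf2, while that of Gpr183 was -0.05. With the Il4+ Il13- cells matched to the Il13+ ones in depth, Ccr7 stood at -2.87, Cxcr4 at -1.26, Klf2 at -0.48 and Gpr183 at -0.29, the last not called. Cxcr5 had too few UMIs for the test under these settings. With 1 UMI in place of 2 as the cytokine cutoff, the changes were -1.40 for Ccr7, -0.56 for Cxcr4 and -0.31 for Klf2. Klf2 of the Tfh sort was at -1.56 without cycling cells (2 mice) and at -1.05 at matched depth.

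**Figure D2:**
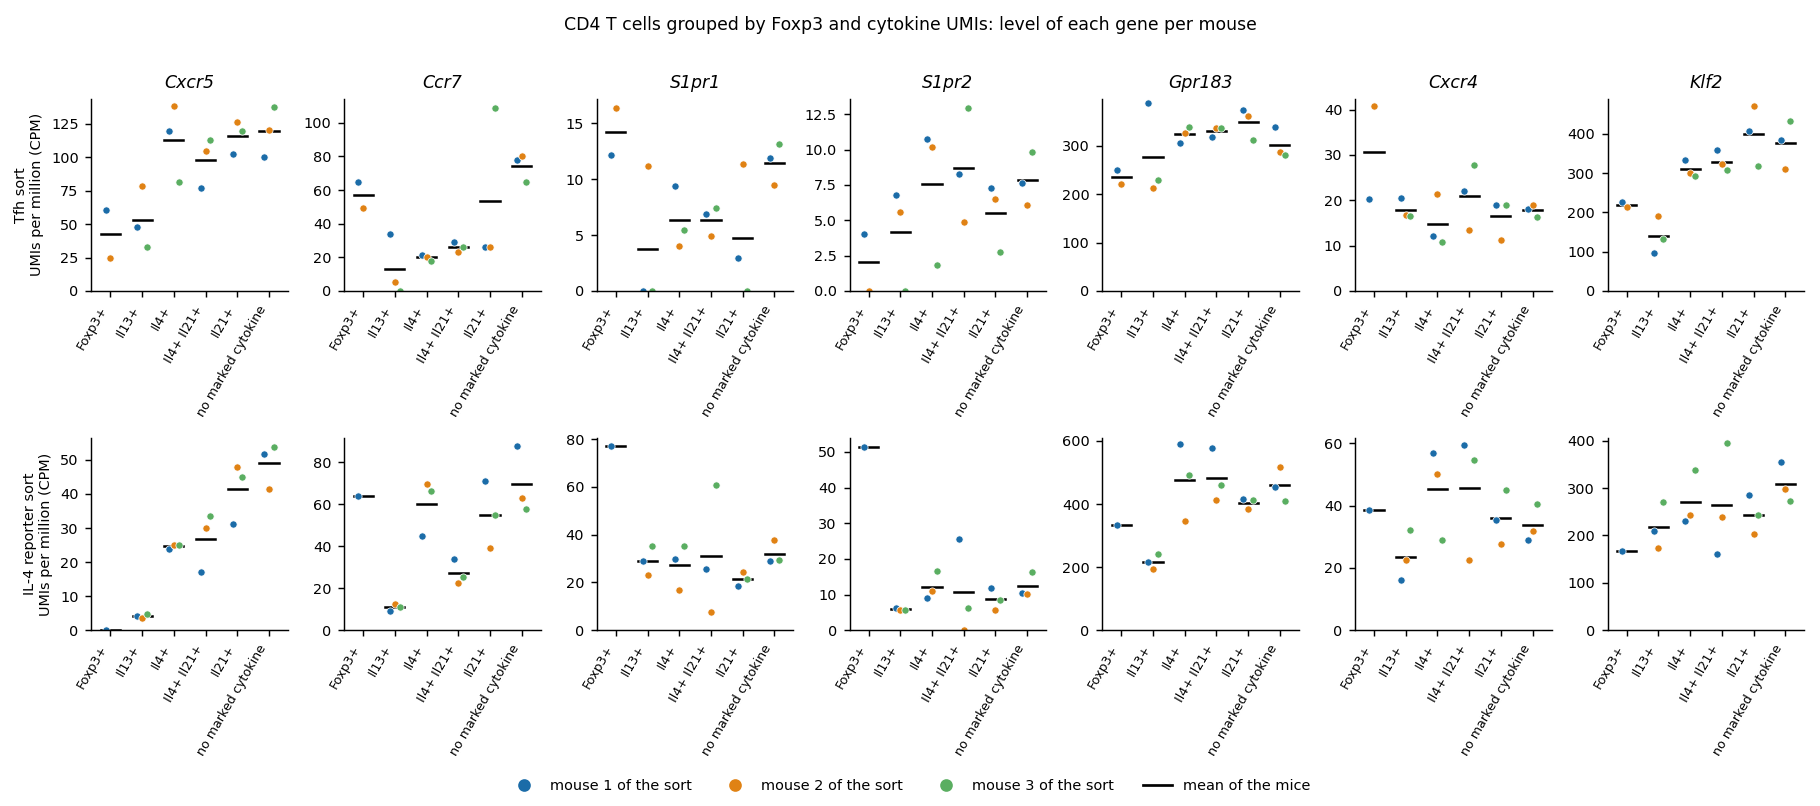
Level of each gene in CPM (y axis, from 0) in 6 classes of CD4 T cells by Foxp3 and cytokine UMIs, per mouse (points) with the mean (bar), shown for mice with 10 or more cells of a class, Tfh sort above and IL-4 reporter sort below. Among the classes shown with 3 mice, Il13+ cells have the lowest Klf2 mean in both sorts and the lowest Cxcr5, Ccr7 and Gpr183 means in the reporter sort.

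Against the lists, Il13+ cells of the Tfh sort had 4 of 8 tested guidance receptors higher and none lower, with a median log2 change of 1.31 against -0.02 over all genes. These were Ltb4r1 (147 CPM in Il13+ against 1.10 CPM in Il4+ Il13- cells), Ccr2 (83.8 against 3.30 CPM), Cxcr6 (115 against 10.2 CPM) and Ccr8, a receptor of Th2 and regulatory T cells (51.7 against 11.9 CPM). Among reporter cells 4 of 11 were higher and 4 lower (median -0.18), with Ltb4r1 at 233 against 18.1 CPM. Of 16 tested upstream regulators in the reporter sort, 0 were higher and 12 lower (median -1.03), among them Tcf7 (84.2 CPM in Il13+ against 359 CPM in Il4+ Il13- cells) and Lef1 (27.6 against 75.4 CPM), the paired factors of Tfh and memory fate. Among cells of the Tfh sort 1 of 14 was higher (Id2, which opposes the E proteins that favour Tfh fate, 175 against 90.3 CPM) and 1 lower (Tcf7, 249.5 against 427 CPM).

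Retention genes split in the same contrast, with 4 of 16 higher and 6 lower in the reporter sort (median -0.15) and 2 of 13 higher and 2 lower in the Tfh sort (median -0.17). Cd69, whose product binds S1PR1 and takes it off the cell surface, was lower in Il13+ cells of both sorts, with log2 changes of -0.59 ± 0.12 in the Tfh sort and -0.87 ± 0.09 in the reporter sort. Of the receptor signalling genes, 2 were higher and 1 lower of 18 in the Tfh sort (median 0.01), and 2 higher and 6 lower of 22 in the reporter sort (median -0.25). No ligand gene was called in either sort, with 0 tested in the Tfh sort and 3 in the reporter sort.

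The Il13 contrast of Gpr183 and of Cxcr5 differed between the sorts by the interaction term, while neither gene was called in the Tfh sort (-0.20 and -0.85). Il4, by which the Il4+ Il13- cells were chosen, was at 876 to 953 CPM in T cells of the Tfh sort. It was at 45.6 to 51.2 CPM in those of the reporter sort, and its part in these differences was not tested. For Gpr183 the difference was -0.97 ± 0.22 on the log2 scale (adjusted p = 0.0042), and for Cxcr5 -1.78 ± 0.48 (adjusted p = 0.021), where 4.26% of genes were called. The Gpr183 difference was -0.41 without mouse 1 of each sort, -0.30 at matched depth and -0.32 without cycling cells, none of them called, and the Cxcr5 difference was called in 6 of 11 alternatives. It was lost without mouse 2 (-1.36) or mouse 3 (-1.68) of each sort, at matched depth (-0.86), without cycling cells (-2.01) and with no low-count filter (-1.55). Klf2 did not differ between the sorts at the threshold (0.65 ± 0.24, adjusted p = 0.12).

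Among cells without Il13, Il4+ cells of the Tfh sort were low in Ccr7. Ccr7 stood at 25.7, 21.7 and 23.6 CPM in Il4+ cells, against 74.9, 51.5 and 68.2 CPM in cells with neither cytokine. The groups were far apart in every mouse, with a log2 change of -1.46 ± 0.17 (edgeR, adjusted p = 2.2e-08), and 2 of 7 genes were called, where 5.32% of 7553 genes were, 2.18% higher and 3.14% lower. Klf2 was the other, at 349, 318 and 298 CPM in Il4+ cells, against 411, 359 and 444 CPM in cells with neither, a log2 change of -0.34 ± 0.07 (adjusted p = 0.00069) that was -0.22 at matched depth and -0.23 without mouse 3, neither called. Cxcr5 was level (log2 change -0.13 ± 0.11), as were Gpr183 (0.01 ± 0.07) and Cxcr4 (0.11 ± 0.24) within their errors. S1pr1 (-0.52 ± 0.39) and S1pr2 (0.25 ± 0.38) did not pass and carried 25 and 34 UMIs in the Il4+ cells.

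B cell RNA moved with Ccr7 here, since 6 B cell markers summed to 7.9 to 17.0 CPM in Il4+ cells and 25.1 to 32.7 CPM in cells with neither cytokine, and its part in the result was not tested. In the B cells of this sort the same markers summed to 3435 to 4034 CPM beside 525 to 670.0 CPM of Ccr7. Of that sum 1542 to 1860 CPM was Cd79a, which was at 0 in the T cells by construction, so the sums of the 2 cell types are not on the same scale. The Ccr7 call held in 10 of 10 alternatives that gave a value, at -0.84 with a cutoff of 1 Il4 UMI. None of the 7 genes was called for Il4 in the reporter sort, where 2.08% of 8654 genes were, 1.65% higher and 0.428% lower (1019 genes had an unadjusted p under 0.05, and DESeq2 called 86). Ccr7 there stood at 40.9, 58.2 and 53.5 CPM in Il4+ Il13- cells, against 74.5, 59.1 and 62.6 CPM in cells with neither. Cxcr5 stood at 14.6, 23.7 and 34.9 CPM in Il4+ Il13- cells, against 47.6, 41.1 and 53.0 CPM in cells with neither. That pair did not overlap and did not pass (log2 change -0.79 ± 0.23, adjusted p = 0.08), although it did with no low-count filter (-0.84) and in the wider set of T cells (-0.82). Klf2 was called without mouse 1 (0.33) and Gpr183 at matched depth (0.41). The Ccr7 contrast differed between the sorts by 1.21 ± 0.25 (interaction, adjusted p = 0.0077, where 1.21% of genes were called), a call kept in 4 of 10 alternatives and lost without mouse 2 (1.19) or mouse 3 (1.11) of each sort. Il4 itself was at 876 to 953 CPM in T cells of the Tfh sort and 45.6 to 51.2 CPM in those of the reporter sort, and 39, 47 and 78 cells of reporter mice 1, 2 and 3 made up the Il4+ Il13- group. Every reporter cell had passed the GFP gate, so cells counted there as lacking Il4 may express it; its part in the absence of calls and in the Ccr7 difference between sorts was not tested.

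The lists gave 0 of 15 upstream regulators higher and 6 lower in Il4+ cells of the Tfh sort (median log2 change -0.30), among them Id3, an E protein inhibitor, Lef1, Klf6 and Foxp1, with log2 changes between -0.72 and -0.39. The guidance receptor Cxcr3, which leads cells toward interferon-driven chemokines, was at 19.6 CPM in Il4+ and 50.7 CPM in cells with neither cytokine, the only called one of 9. The integrin gene Itga4 was lower (14.8 against 36.7 CPM) and Itgb1 higher (443 against 304 CPM), with 1 of 14 retention genes higher and 2 lower, while 2 of 20 signalling genes were lower and 0 of 3 ligand genes were called. Reporter Il4+ cells had 3 of 17 regulators higher and 3 lower, and 1 of 10 guidance receptors (Ccr2, 73.9 against 21.2 CPM) and 2 of 14 retention genes higher, and no signalling or ligand gene was called.

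**Figure D3:**
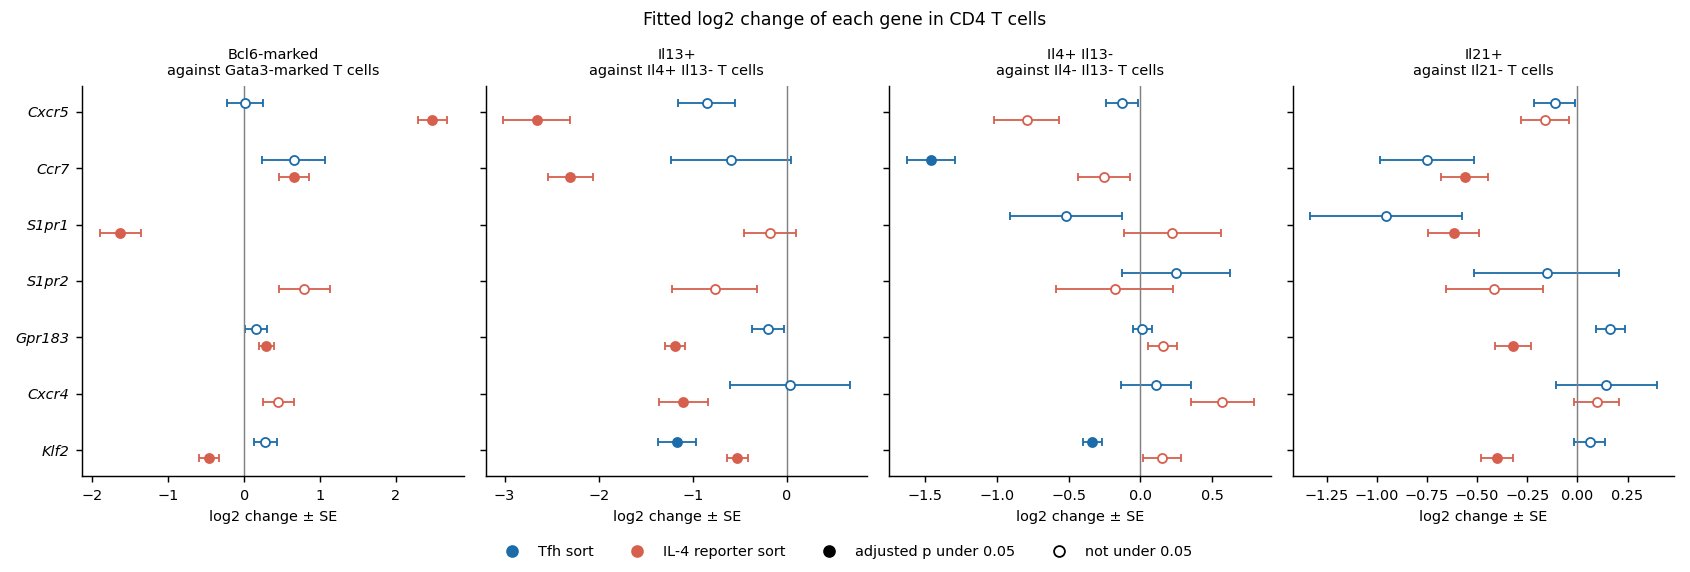
Fitted log2 change of each gene (x axis, ± SE of the edgeR fit) in 4 contrasts of CD4 T cells, 3 mice a sort. The Tfh sort is in blue and the IL-4 reporter sort in red, filled where the adjusted p is under 0.05. Points to the right of 0 are higher in the first-named cells; Cxcr5 and S1pr1 move furthest apart in the Bcl6 contrast of the reporter sort, and all filled points of the Il13, Il4 and Il21 contrasts lie left of 0.

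IL-21 is the cytokine by which Tfh cells drive germinal-centre B cells. Il21+ cells (2 or more UMIs) of the reporter sort were slightly lower than Il21- cells in Ccr7, S1pr1, Klf2 and Gpr183. Both groups kept Il13+ cells, whose part in these differences was not tested. With Il13+, Il4+ and Foxp3+ cells set apart as classes, Il21+ cells averaged 55.1 CPM of Ccr7, against 69.6 CPM with no marked cytokine. Gpr183 averaged 405 against 460 CPM and Klf2 243 against 308 CPM, and all 3 overlapped. S1pr1 did not overlap, at 21.3 against 32.0 CPM. S1pr1 stood at 21.8, 18.4 and 25.6 CPM in Il21+ cells, against 29.0, 34.4 and 37.2 CPM in Il21- cells (log2 change -0.62 ± 0.13, adjusted p = 0.0052). Ccr7 stood at 45.9, 24.4 and 37.8 CPM in Il21+ cells, against 65.4, 47.2 and 46.2 CPM in Il21- cells (log2 change -0.56 ± 0.12, adjusted p = 0.0052). Klf2 stood at 249.8, 169 and 250.2 CPM in Il21+ cells, against 320.4, 269 and 281 CPM in Il21- cells (log2 change -0.40 ± 0.08, adjusted p = 0.005). None of these 3 pairs of groups overlapped, and with Gpr183 (-0.32 ± 0.09, adjusted p = 0.043) 4 of 7 genes were called, where 5.23% of 9806 genes were, 2.59% higher and 2.64% lower. All 4 calls were lost without mouse 2, which held the lowest Il21+ value of each gene, with log2 changes of -0.40 for Ccr7, -0.48 for S1pr1, -0.26 for Klf2 and -0.12 for Gpr183. They were also lost without the mouse as a block, and S1pr1 without mouse 3 (-0.66, adjusted p = 0.06). At matched depth Ccr7 was at -0.27 and Gpr183 at -0.06, and without cycling cells S1pr1 was at -0.37, none called.

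Cxcr5 did not pass in reporter Il21+ cells, at 21.0, 23.4 and 32.0 CPM, against 25.8, 26.5 and 32.9 CPM in Il21- cells (log2 change -0.16 ± 0.12), nor did S1pr2 (-0.42 ± 0.24, and -0.86 without mouse 1, where it was called). None of the 7 genes was called for Il21 in the Tfh sort, where 2.55% of 7613 genes were, 1.66% higher and 0.893% lower (1100 genes had an unadjusted p under 0.05, and DESeq2 called 35). S1pr1 there stood at 4.73, 7.33 and 4.20 CPM in Il21+ cells, against 13.02, 8.44 and 12.3 CPM in Il21- cells. The groups did not overlap, but on 22 and 44 UMIs the log2 change of -0.95 ± 0.38 did not pass (adjusted p = 0.26). Ccr7 (-0.75 ± 0.24, adjusted p = 0.12) had 1 mouse running the other way, and was called without that mouse 3 (-1.25), at matched depth (-0.87) and with no low-count filter (-0.74). Gpr183 was called at matched depth (0.43). No interaction was called for any of the 7 genes, where 0.149% of genes were, except without mouse 3 of each sort, where Klf2 (-0.70) and Gpr183 (-0.66) were called, with no low-count filter, where both were, and at matched depth or in the wider set of T cells, where Klf2 was.

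Of the upstream regulators, 5 of 15 were lower in Il21+ cells of the Tfh sort, 0 higher and 10 not passing (median log2 change -0.19), and 9 of 17 were lower in the reporter sort, 2 higher and 6 not passing (median -0.28). Id3 and Lef1 were among the lower ones in both, Id3 at -1.09 ± 0.19 in the Tfh sort and -1.40 ± 0.13 in the reporter sort, and Lef1 at -0.60 ± 0.12 and -0.78 ± 0.09. The Tfh sort gave 1 of 11 guidance receptors higher (Ptger4, a prostaglandin E2 receptor, 125 CPM in Il21+ against 92.1 CPM in Il21- cells), 1 of 14 retention genes higher and 1 lower, 2 of 20 signalling genes lower and 0 of 3 ligand genes called. Of 12 guidance receptors in the reporter sort 2 were higher, Cxcr3 among them (15.3 CPM in Il21+ against 7.71 CPM in Il21- cells), and 4 were lower, among them S1pr4 (39.7 against 59.5 CPM). Retention genes gave 1 of 17 higher and 4 lower there, signalling genes 2 of 23 and 1, and ligand genes 0 of 3 and 1, Sgpp1, an enzyme that degrades sphingosine-1-phosphate (7.75 against 13.8 CPM).

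Cells with a Foxp3 UMI, the factor of regulatory T cells, numbered 33, 21 and 9 in the mice of the Tfh sort, so only mice 1 and 2 entered the fit. Cxcr5 stood at 60.5 and 24.5 CPM in Foxp3+ cells, against 97.9 and 120.4 CPM in Foxp3- cells (log2 change -1.24 ± 0.31, adjusted p = 0.003), while the 9 cells of mouse 3 gave 216 CPM. Klf2 (226 and 213 CPM in Foxp3+ against 363 and 329 CPM in Foxp3- cells, -0.76 ± 0.18) and Gpr183 (250.2 and 221 against 337 and 315 CPM, -0.56 ± 0.18) were also called, 3 of 7 genes where 5.77% of 8342 genes were, 2.67% higher and 3.09% lower. All 3 calls were lost with DESeq2 and at matched depth, where the changes were -0.73 for Cxcr5, -0.38 for Klf2 and -0.14 for Gpr183. Without cycling cells Klf2 alone was called (-1.19), as it was in the wider set of T cells (-0.65), where Cxcr5 was at -0.61 and Gpr183 at -0.29. Foxp3+ cells were deeper, with a median of 5511 and 4579 UMIs against 2795 and 2621 in Foxp3- cells. Of the lists, 2 of 11 guidance receptors were higher, led by Ccr8 (132 against 15.7 CPM), 4 of 14 retention genes were higher and 2 lower, 1 of 17 regulators was higher and 4 lower, 2 of 20 signalling genes were lower and 0 of 3 ligand genes were called. The reporter sort held 10, 6 and 6 Foxp3+ cells, too few to test, and no Cxcr5 UMI was seen in these 22 cells.

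Ordered over all 6 classes, Cxcr5 in the reporter sort averaged 49.0 ± 6.66 CPM (SD, n = 3) in cells with no marked cytokine, 41.4 ± 9.02 CPM in Il21+, 26.8 ± 8.70 CPM in Il4+ Il21+, 24.7 ± 0.62 CPM in Il4+ and 4.18 ± 0.57 CPM in Il13+ cells. The few Foxp3+ cells ranked last, with no Cxcr5 UMI. Neighbours down to Il4+ overlapped, and Il13+ cells stood apart. All neighbours of Cxcr5 overlapped in the Tfh sort, at means of 98.2 to 119 CPM except for Il13+ cells at 53.0 ± 23.2 CPM. Klf2 in the Tfh sort broke once, between Il4+ cells (309 ± 22.1 CPM) and Foxp3+ and Il13+ cells (189 ± 52.3 and 139 ± 47.8 CPM), with Il21+ cells highest at 399 ± 76.5 CPM.

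Ccr7 was highest in T cells with no marked cytokine in the Tfh sort, at 74.3 ± 8.54 CPM, and Il4+ Il21+ cells (26.0 ± 2.87 CPM) and Il4+ cells (20.0 ± 1.73 CPM) lay below without overlap with each other, with Il13+ cells lowest at 13.2 ± 18.3 CPM. In the reporter sort, Il4+ Il21+ cells (27.2 ± 6.04 CPM) and Il13+ cells (10.9 ± 1.78 CPM) stood apart from all classes with higher means but the few Foxp3+ cells, whose mice ranged from 0 to 220.2 CPM. Gpr183 in the reporter sort had 1 break, between Il21+ cells (405 ± 18.3 CPM) and Il13+ cells (217 ± 23.1 CPM). S1pr2 and Cxcr4 showed no break between neighbours in either sort, with class means of 1.35 to 8.69 and 14.8 to 27.6 CPM in the Tfh sort and 5.84 to 24.5 and 23.7 to 45.5 CPM in the reporter sort. S1pr1 had none in the reporter sort (21.3 to 54.4 CPM) and 1 in the Tfh sort, between cells with no marked cytokine (11.5 ± 1.86 CPM) and Il4+ Il21+ cells (6.38 ± 1.33 CPM). That break did not part all lower classes. Il21+ and Il13+ cells, with lower means, reached 11.3 and 11.2 CPM, above the lowest mouse with no marked cytokine (9.45 CPM).

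In single T cells, some pairs of the genes were detected together more often than their separate shares give, and others less often. Cells were thinned to 1500 UMIs in the Tfh sort and 3000 in the reporter sort (2853 and 2934 cells deep enough), and the number with UMIs of both genes was divided by the number that the 2 shares multiply to. Ccr7 with Klf2 had a ratio of 1.57 in the reporter sort (194 cells), S1pr1 with Klf2 1.54 (125 cells) and Ccr7 with S1pr1 1.45 (33 cells). By mouse the Ccr7 with S1pr1 ratio was 1.04, 2.08 and 1.39, so mouse 1 showed almost no excess. Cxcr5 with S1pr2 had a ratio of 1.84 on 18 cells and Cxcr5 with Cxcr4 one of 1.36 on 36 cells. Below 1, the ratios were 0.37 for Cxcr5 with Ccr7 (12 cells), 0.60 with S1pr1 (13 cells) and 0.67 with Klf2 (75 cells). Cxcr5 with S1pr1 was not below 1 in every mouse, with ratios of 1.37, 0.37 and 0.36 on 7, 2 and 4 cells. The Cxcr5 with Klf2 ratio was 0.63, 0.78 and 0.65 in the 3 mice, and that of Ccr7 with Klf2 1.54, 1.62 and 1.58. Cells of the Tfh sort gave a ratio of 1.31 for Ccr7 with Klf2 (61 cells), and 0.97 for Cxcr5 with Klf2 (136 cells). Cxcr5 there had ratios of 0.91 with Ccr7 (20 cells) and 0.81 with Cxcr4 (10 cells), unlike the reporter sort. Its ratios with S1pr2 and S1pr1 were 1.08 and 0.91, on 6 and 5 cells. S1pr1 had ratios of 1.12 with Klf2 (13 cells) and 0.55 with Ccr7 (1 cell). These are descriptions of cells that share their mouse and library, and small numbers of cells stand behind the rarer pairs.

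**Figure D4:**
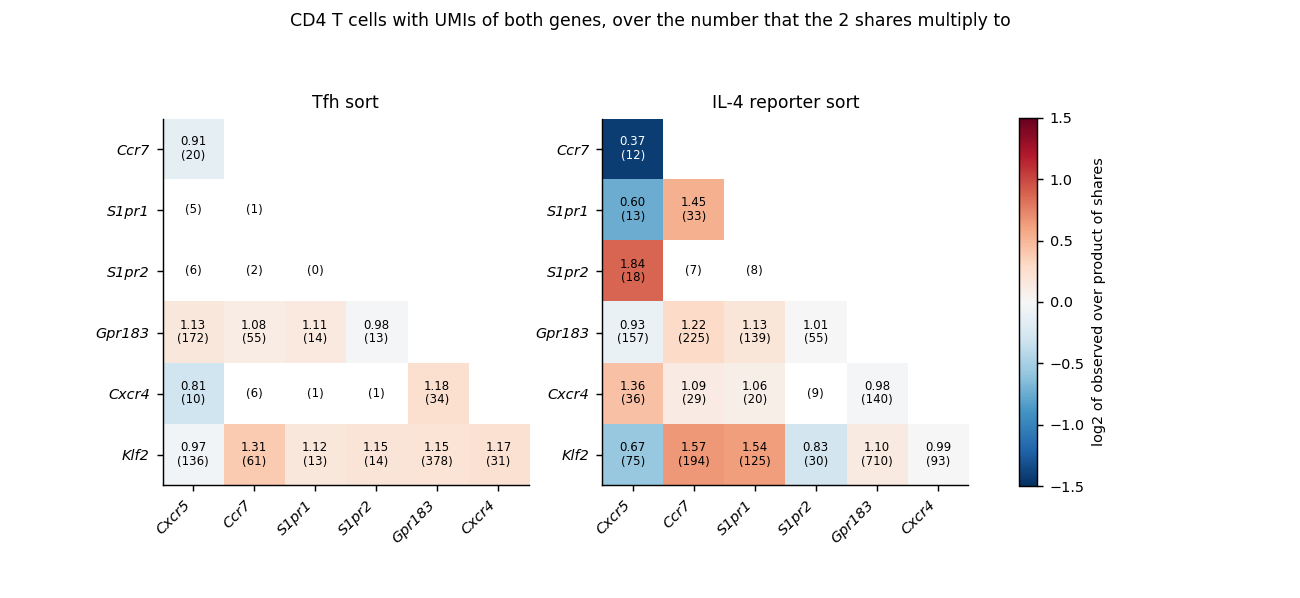
Ratio of CD4 T cells with UMIs of both genes to the number that the 2 shares multiply to, after thinning to a fixed depth, with the number of such cells in brackets, Tfh sort left and IL-4 reporter sort right; ratios resting on under 10 cells are left blank. Over all reporter cells Cxcr5 has ratios of 0.37 to 0.67 with Ccr7, S1pr1 (above 1 in mouse 1) and Klf2 and of 1.84 and 1.36 with S1pr2 and Cxcr4.

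Levels were also read in T cells split by Ccr7 or by S1pr1 UMIs themselves. Reporter T cells with 2 or more Ccr7 UMIs (296 cells) held 423 ± 86.8 CPM of Klf2 and 7.91 ± 2.80 CPM of Cxcr5, against 217 ± 20.8 CPM and 35.4 ± 5.83 CPM in cells with no Ccr7 UMI (SD, n = 3). Those with an S1pr1 UMI (562 cells) held 400.2 ± 31.0 CPM of Klf2 and 12.3 ± 4.54 CPM of Cxcr5, against 209.7 ± 33.1 CPM and 36.1 ± 8.21 CPM in cells with none. None of these ranges over mice overlapped. Klf2 of the Tfh sort averaged 467 ± 93.0 CPM in the 69 cells with 2 or more Ccr7 UMIs, against 333 ± 15.8 CPM in cells with none, and 362 ± 70.4 CPM in the 82 cells with an S1pr1 UMI, against 340.4 ± 12.1 CPM in cells with none.

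The genes most like each of the 7 over the class sums were sought among 2528 genes in the reporter sort (16 sums) and 2510 in the Tfh sort (17 sums), on log2(CPM + 10). Reporter Cxcr5 ran closest to Rbm39 (Pearson r = 0.97), Asap1 (0.94) and Ikzf1 (0.93), and Ccr7 to Foxp1, Zbtb20 and Sostdc1 (0.90, 0.90 and 0.89). Gpr183 ran closest to Izumo1r (0.91), which encodes folate receptor 4, Trp53inp1 (0.91) and Slc9a9 (0.90). In the Tfh sort Klf2 ran closest to Actn1 (0.92), its family member Klf4 (0.90) and Tagap (0.88), and Cxcr5 to Tiprl (0.92). Reporter Klf2 ran closest to Tnks2, Rasa1 and Nsmce1, each at 0.73, without Klf4. The remaining members, whose closest genes are not named, reached 0.88 at most in either sort. The sums share mice, libraries and cell numbers, so these values describe the classes and carry no test.

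B cells in both sorts carried more of most of these genes than the T cells beside them. The cells with 2 or more Cd79a UMIs held 6 B cell markers at 3435 to 4034 CPM in the Tfh sort and 3457 to 4981 CPM in the reporter sort, against 14.9 to 21.6 and 4.4 to 5.5 CPM in CD4 T cells. Cd79a, by which both cell types were chosen, is among the 6. Both sorts were gated on TCRβ and CD4, and 39.5% of the B cells of the Tfh sort and 53.2% of those of the reporter sort also held a Cd3d, Cd3e or Cd3g UMI. Their T cell markers summed to 657 to 1140 CPM and 815 to 1767 CPM, against 4599 to 4632 and 3402 to 3768 CPM in T cells. Changes are therefore also given without those cells.

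Ccr7, which also leads B cells to the border of the T zone, stood at 525, 546 and 670.0 CPM in B cells of the Tfh sort, against 47.2, 43.0 and 50.4 CPM in CD4 T cells. The log2 change was 3.81 ± 0.10 (edgeR, adjusted p = 6.4e-14) and 4.47 without B cells that held a Cd3 UMI. Cxcr5 stood at 429, 322 and 424 CPM in B cells, against 95.6, 118 and 116 CPM in CD4 T cells, a log2 change of 2.02 ± 0.13 (2.41 without Cd3). B cells thus exceeded the CXCR5-gated T cells of the same mice without overlap, and 6 of 7 genes were called higher, where 34.5% of 7996 genes were called, 18.4% higher and 16.1% lower. Gpr183 rose by 1.50 ± 0.09 (1.97 without Cd3), Klf2 by 0.64 ± 0.10 (1.07) and Cxcr4 by 1.02 ± 0.22 (1.34), and S1pr1 by 1.04 ± 0.34 (1.28) with an adjusted p = 0.026 over all B cells, on 30 UMIs in B cells. DESeq2 called neither Cxcr4 nor S1pr1, and S1pr1 was not called without mouse 1 (0.79) or mouse 2 (1.05), or with 3 or more Cd79a UMIs asked of a B cell (0.58). S1pr2 stood at 1.35, 8.21 and 18.1 CPM in B cells, against 8.03, 6.66 and 7.25 CPM in CD4 T cells, spread too wide for a call (0.37 ± 0.50, and -1.34 without Cd3, not called either).

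Reporter Cxcr5 stood at 157, 219.8 and 153 CPM in B cells, against 29.0, 24.8 and 35.3 CPM in CD4 T cells (log2 change 2.64 ± 0.21, adjusted p = 1.1e-06, and 2.94 without Cd3). Ccr7 rose by 1.99 ± 0.21 (2.53 without Cd3), Cxcr4 by 1.71 ± 0.19 (2.05), Klf2 by 1.43 ± 0.20 (1.73) and Gpr183 by 1.41 ± 0.17 (1.90), so 5 of 7 genes were called, where 15.4% of 10161 genes were, 7.88% higher and 7.5% lower. S1pr1 overlapped between the cell types here, at 34.4, 35.6 and 16.1 CPM in B cells, against 27.0, 27.6 and 31.0 CPM in CD4 T cells (log2 change -0.07 ± 0.29, and 0.23 without Cd3). S1pr2 did not pass (0.89 ± 0.31, adjusted p = 0.072, and 1.16 without Cd3), and was called without mouse 2 (0.98) and without the mouse as a block (1.04). B cells without a Cd3 UMI that held Bcl6, the factor of germinal-centre B cells as well, numbered 7 in the Tfh sort and 16 in the reporter sort, and no contrast could be fitted for them.

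**Figure D5:**
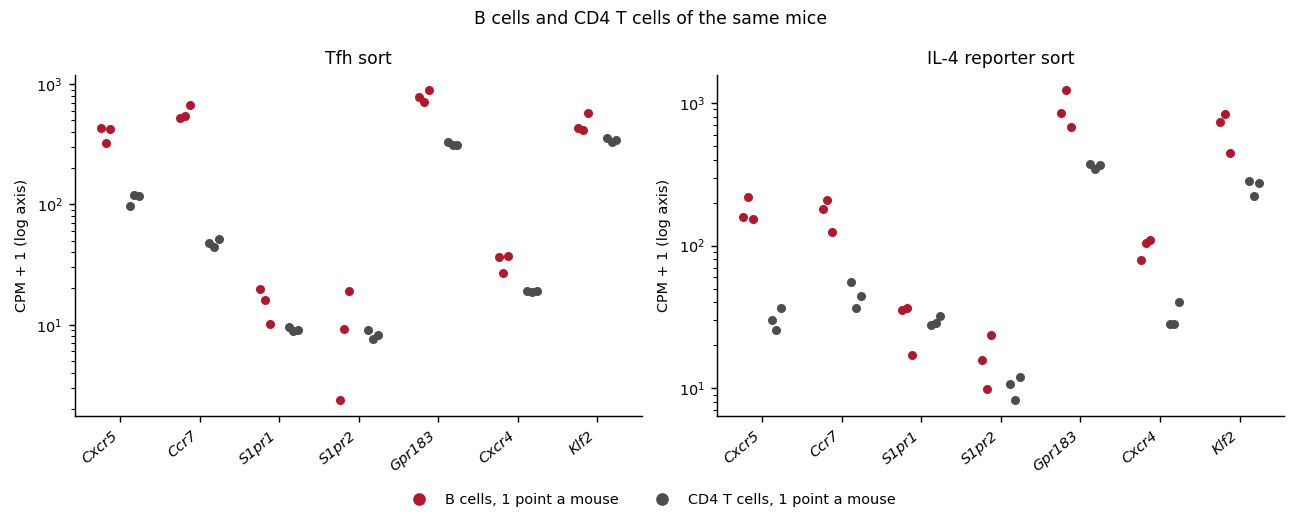
Level of each gene as CPM + 1 (y axis, log scale) in B cells (red) and CD4 T cells (grey), 1 point a mouse, Tfh sort left and IL-4 reporter sort right. Cxcr5, Ccr7, Gpr183, Cxcr4 and Klf2 lie higher in all B cell points than in all T cell points in both sorts, and S1pr2 overlaps in both.

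Of the lists, 6 of 12 guidance receptors were higher and 5 lower in B cells of the Tfh sort, and 4 of 15 higher and 4 lower in the reporter sort. Ccr6, a receptor of naive and memory B cells, was at 29.8 CPM in B cells and 0.933 CPM in T cells of the Tfh sort, and Gpr18 at 169.9 and 16.6 CPM. Upstream regulators gave 6 of 16 higher and 6 lower in the Tfh sort and 4 of 18 higher and 6 lower in the reporter sort, and retention genes 3 of 14 higher and 7 lower and 3 of 17 higher and 7 lower. Signalling genes gave 6 of 21 higher and 6 lower in the Tfh sort and 3 of 23 higher and 5 lower in the reporter sort, and ligand genes 1 of 4 higher and 0 lower in each. Bach2, a repressor that holds back plasma cell fate, stood at 51.5 CPM in B cells and 4.69 CPM in T cells of the Tfh sort.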

How the data were processed

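Single-cell 3′ RNA and hashtag tags were measured in 2 sorts of CD4 T cells of 3 mice each, 1 lane a sort; the chemistry was version 2 for the Tfh sort and version 3 for the IL-4 reporter sort, per the labels. Gene matrices deposited by the authors give unnormalized UMI counts, and their hashtag tables give counts that may be of reads or of molecules, which is not stated. Cell Ranger (2.2.0), bcl2fastq (2.18.0.12 or 2.20.0.422) and the builds mm10 and GRCm38 appear in the submitters' processing notes, but the header of the reporter matrix has Cell Ranger 3.0.2. The annotation release is not given in the sources used here.

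Barcodes with under 500 genes or over 10% mitochondrial UMIs were dropped, leaving 3916 of 3956 and 4585 of 7646. A cell's mouse was the hashtag with 10 or more counts and 3 times the second; 135 and 585 cells with 2 hashtags were left out as doublets, and doublets within a mouse were not sought. The 67 repeated symbols of 28692 features were summed. CD4 T cells had a Cd3d, Cd3e or Cd3g UMI and no Cd79a, Cd8a or Cd8b1 UMI, and fewer than 3 C1q UMIs. Cells are not replicates, so UMIs were summed per mouse and cell group (10 or more cells a sum). Quasi-likelihood models over all genes came from edgeR 4.0.16 (R 4.3.3), scaled by TMM after edgeR's low-count filter (minimum 10), with the mouse as a block and Benjamini-Hochberg adjustment at 0.05 over all genes tested; scripts were tested on simulated data. CPM use plain totals. With the mouse as a block, p-values weigh a change against how much it varies from mouse to mouse, with variance information shared over genes. The main fits within a sort had 3 mice, or 2 for Foxp3, and interaction terms used the mice of both sorts. A call can therefore pass although 1 mouse runs the other way. Groups defined by UMIs of a marker contain deeper cells, because detection depends on depth. The mouse is known from the hashtag, so same-numbered sums of a contrast come from the same animal; their deviations correlated at -0.21 to 0.70, over 0.1 in 17 of 30 pairs.

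The 7 genes and the gene lists were chosen with earlier results of these data known. Text names the 7 genes and up to 4 called genes per list with the largest changes in the same direction in every mouse. The most alike genes were sought for each of the 7 and are named for some, mainly those with the highest r. Alternatives were no low-count filter, RLE factors, DESeq2 1.42.0, no block, leaving out each mouse, matching the second-named cells in depth within each mouse (5 bins), other marker cutoffs and a wider T cell set. Leaving out cycling cells, and B cells with a Cd3 UMI, was chosen after seeing the data. One gene of the retention list is not reported here by name.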

Additional observations from a re-analysis of the deposited data

Results flagged for a closer look

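Each of these differences between the sorts was tested by an edgeR interaction term over 6 mice, and strain, gate, chemistry and run differ with the sort and cannot be told apart. The Cxcr5 change between Bcl6-marked and Gata3-marked T cells was larger in the reporter sort than in the Tfh sort by 2.53 on the log2 scale, and stayed called in 10 of 10 alternatives. The Cxcr5 change between Il13+ and Il4+ Il13- cells differed by -1.78, with lower values in Il13+ cells in 3 of 3 mice of each sort, and was called in 6 of 11 alternatives, the weakest at -0.86. The Gpr183 change in the same contrast differed by -0.97, with lower values in Il13+ cells in 3 of 3 reporter mice and 2 of 3 mice of the Tfh sort, and was called in 8 of 11 alternatives, the weakest at -0.30. The Ccr7 change between Il4+ Il13- cells and cells with neither cytokine differed by 1.21, with lower values in Il4+ Il13- cells in 3 of 3 mice of each sort. It was called in 4 of 10 alternatives, the weakest at 0.59 with a cutoff of 1 Il4 UMI, and not without the mouse as a block (1.19, adjusted p = 0.062).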

How the results depend on the processing

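Counts of called genes depended on the tool, the depth of the compared cells and the cycling cells, and the cause was not tested except where fewer cells or mice enter by construction. RLE factors moved no count by over 1.5 times.

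DESeq2 called 7 genes for Bcl6 against Gata3 in the Tfh sort (35 with edgeR) and 1019 in the reporter sort (2482), 83 and 1149 for Il13 (194 and 2553), 60 and 86 for Il4 (402 and 180), 35 and 103 for Il21 (194 and 513), 123 for Foxp3 (481) and 1496 for B cells of the Tfh sort (2756). For differences between sorts DESeq2 called 167 for Bcl6 against Gata3 (255), 205 for Il13 (318) and 9 for Il21 (14). Without the replicate block the mice were not paired, and 14 genes were called for Bcl6 against Gata3 in the Tfh sort, 264 and 97 for Il4 in the Tfh and reporter sorts, 93 for Il21 in the reporter sort, and 165, 17 and 0 for the differences between sorts in Il13, Il4 and Il21. The 0 genes of edgeR compare with 510 at an unadjusted p under 0.05 in that fit. No low-count filter gave 320 for Il21 in the Tfh sort and 65 for its difference between sorts.

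With cells matched in depth, 18 and 1506 genes were called for Bcl6 against Gata3 in the Tfh and reporter sorts, 118 and 473 for Il13, 107 for Il4 in the Tfh sort and 59 for Foxp3, and 126, 27, 18 and 32 for the differences between sorts in Bcl6 against Gata3, Il13, Il4 and Il21. Without cycling cells the counts were 4 and 235 for Bcl6 against Gata3, 113 and 328 for Il13, 159 and 50 for Il4, 76 for Foxp3, and 31, 10, 23 and 23 for the same 4 differences. Other marker cutoffs gave 1253 for Bcl6 against Gata3 in the reporter sort, and 64 and 22 for the differences in Il4 and Il21. The wider set of T cells gave 347 for Il4 and 801 for Il21 in the reporter sort, and 31 for the Il21 difference.

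Leaving out each mouse gave 15 to 35 and 1546 to 1915 genes for Bcl6 against Gata3 in the Tfh and reporter sorts, 96 to 238 and 1468 to 2374 for Il13, 237 to 302 and 70 to 340 for Il4, 4 to 232 and 201 to 540 for Il21, and 1995 to 2515 and 1042 to 2233 for B cells. For the 4 differences it gave 145 to 197, 140 to 239, 21 to 81 and 0 to 38. The 4 and the 0 for Il21 came without mouse 1 (608 genes had an unadjusted p under 0.05 beside the 0), and the 38 without mouse 3. Counts also moved by over 1.5 times without mouse 2 for Bcl6 against Gata3 in the Tfh sort (15), for Il13 (96, and 140 for its difference), for Il4 (237 and 70, and 49 for its difference) and for Il21 (126 and 273). Without mouse 3 they did so for Bcl6 against Gata3 (1546, and 145 for its difference), Il13 (1468), Il4 (107, and 21 for its difference) and Il21 (201) in the reporter sort, and without mouse 1 for Il13 (99, and 201 for its difference) and Il4 (340). In the wider set of T cells 8 of 140 class levels moved by more than the SD over mice. Among the 7 genes, Ccr7 (-0.60) and Gpr183 (-0.26) changed sign without cycling cells in the reporter sort's Bcl6 against Gata3 contrast. Other cutoffs were not run for the Tfh sort's Bcl6 against Gata3 contrast, its difference or Foxp3, and no mouse was left out for Foxp3, where cells were too few. Cxcr5 could not be fitted in Il13+ reporter cells at matched depth or without cycling cells.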
